A study of Mus musculus with 12 samples.

Results

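The genes described here are 8 enzymes of lipid synthesis, 5 of the sterol pathway (Hmgcs1, Mvd, Idi1, Fdps and Sqle) and 3 of fatty-acid synthesis (Fasn, Elovl6 and Scd2). They were chosen by name. Both they and the gene lists used below were chosen with earlier results of these data known. Their counts beside the shares of all genes are therefore descriptions. Every probe set that the platform annotation assigns to the 8 genes was taken. That gave 13 of the 12422 probe sets tested and 8 of the 8251 genes measured. RNA of mouse thymus was measured on 12 Affymetrix 3'-end arrays, 8 of leukemic cells and 4 of normal thymocytes. The leukemic cells came from mice of genotype TEL-JAK2 with terminal disease, and the thymocytes from wild type mice aged 2 months. TEL-JAK2 is a fusion of the transcription factor TEL (Etv6) with the tyrosine kinase Jak2. All mice had the strain C57Bl/6. The age of the leukemic mice and the promoter that drives the fusion were not given in the sources used here. Age, disease and genotype cannot be told apart between the groups. Each sample was a suspension of dissociated thymus without a stated sort, and although the titles give each array an identifier of its own, no label says that these are separate animals. The p-values measure only the spread between these samples. Arrays are numbered within each group only to name them.

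Sterol synthesis joins acetyl units into mevalonate, turns mevalonate into isoprenoid diphosphates, and closes squalene into the sterol ring, ending in cholesterol. Fatty-acid synthesis builds palmitate from malonyl units, after which elongases lengthen it and desaturases add double bonds. Both pathways are under the transcription factors called SREBPs, which are released from the Golgi membrane by a pair of proteases when sterols are low and which act on many promoters together with NF-Y, the factor that binds CCAAT boxes. Dividing lymphocytes draw on both pathways for membrane.

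The arrays were alike in brightness, with median intensities from 66.48 to 70.18. Pairs of thymocyte arrays correlated at 0.990 to 0.997 and pairs of leukemia arrays at 0.961 to 0.993 over probe sets. Of 10 T-cell markers measured, all lay above the level of the non-mouse control probe sets in both groups. Of these, 4 were lower in leukemia, where 11.9% of all genes were. The mean log2 level of the T-cell list was 8.30 to 9.90 in leukemia, lowest in leukemia 1, and 10.12 to 10.22 in thymocytes, without overlap. None of the 13 macrophage markers passed the test, but all had a higher mean in leukemia. Only 9 of them lay above the control level in leukemia and 8 in thymocytes. Their mean log2 level reached 6.96, 7.27 and 7.47 in leukemias 3, 5 and 7. It was 5.99 to 6.37 in the other leukemias and 6.00 to 6.25 in thymocytes. Of 12 cell-division genes, 10 (83.3%) were lower in leukemia, with a mean log2 level of 6.99 to 8.27 there and 8.45 to 9.03 in thymocytes. Of 8 adipocyte markers, 0 passed the test with limma and 3 lay above the control level, and the list's mean was 5.01 to 5.16 in leukemia and 5.09 to 5.17 in thymocytes.

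Mvd and Elovl6 rose in leukemia, and none of the other members passed the test in either direction. Mvd was 2.06-fold higher, with a log2 difference of 1.04 (SE 0.14), and Elovl6 1.38-fold higher, with a difference of 0.46 (SE 0.14). That is 2 of 8 members (25% of them), while 17.3% of all genes passed the test, 5.41% higher and 11.9% lower, so the number of members called stood near the background. The median difference of the 8 members was 0.12 on the log2 scale, against 0.00 over all genes. Mvd and Elovl6 were also the only members whose groups did not overlap, with all 8 leukemias above all 4 thymocytes, which held for 4.21% of all genes. No member had all leukemias below all thymocytes, which held for 8.11% of all genes. A call here is an adjusted p under 0.05 from limma, with Benjamini-Hochberg adjustment over all genes. In these bulk samples, fewer cells of a type and less RNA per cell cannot be told apart.

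**Figure D1:**
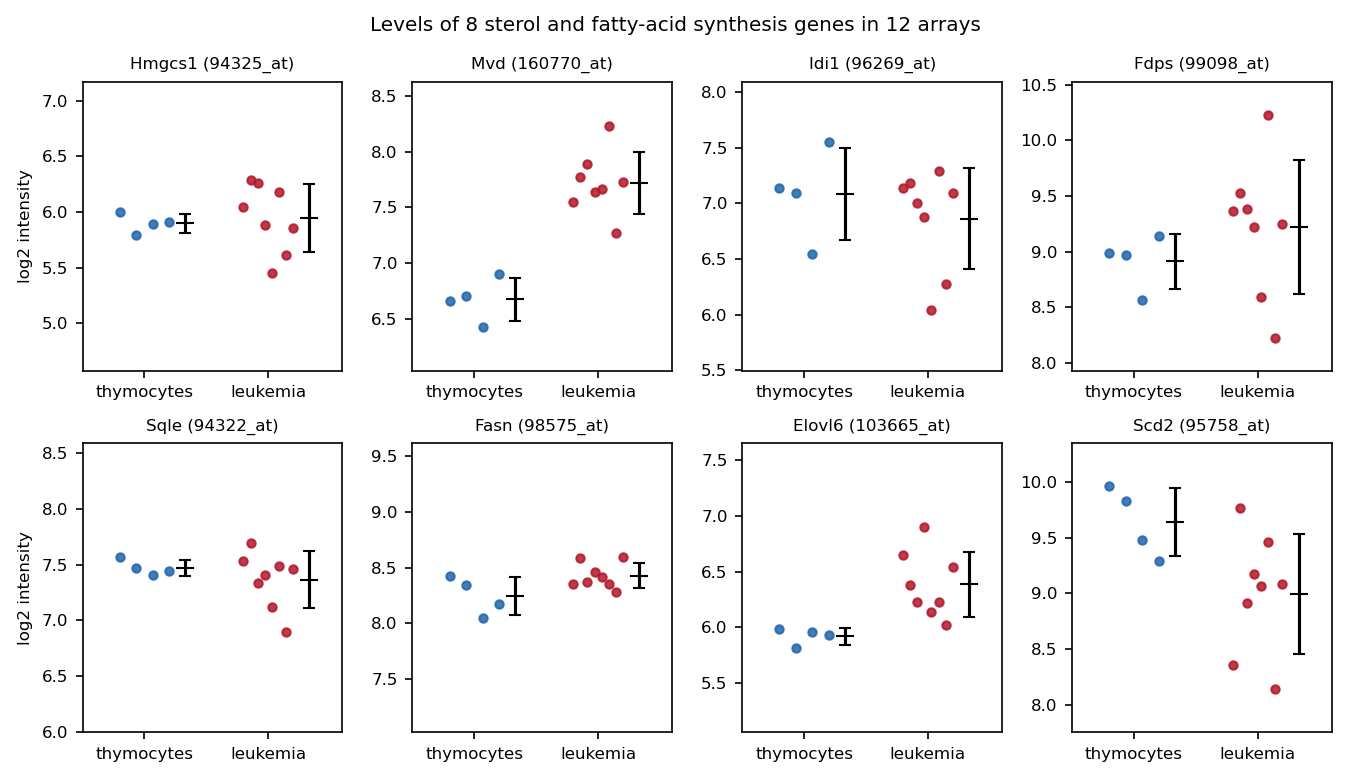
Log2 intensity (vertical axis) of the brightest probe set of each member in 4 thymocyte arrays (blue points) and 8 leukemia arrays (red points), with the mean and SD of each group as black bars; every panel spans the same number of log2 units. The groups separate completely for Mvd and Elovl6, and overlap for the other 6 genes.

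Mvd, the decarboxylase that turns mevalonate diphosphate into isopentenyl diphosphate, was the member with the largest difference. Its 1 probe set (160770_at) read 6.66, 6.71, 6.43 and 6.90 in the 4 thymocyte arrays and 7.55, 7.77, 7.89, 7.63, 7.66, 8.23, 7.27 and 7.73 in leukemias 1 to 8, in log2 intensity. The lowest leukemia thus lay above the highest thymocyte array, and leukemia 6 was the highest. The means were 7.72 ± 0.28 (SD, n = 8) and 6.67 ± 0.19 (SD, n = 4). The difference had a 95% interval of 0.74 to 1.35 and an adjusted p of 0.00026 in limma. It was as large without the 3 leukemias with the highest macrophage markers (1.11, adjusted p = 0.000619), and with each array left out in turn it ranged from 0.96 to 1.12. The cell-division genes moved the other way from Mvd, and their part in the result was not tested.

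Hmgcs1, Idi1 and Sqle, members that act before or after Mvd in the pathway, did not separate the groups. Hmgcs1, the cytosolic synthase that makes the precursor of mevalonate, read 6.00, 5.79, 5.89 and 5.91 in thymocytes and from 5.45 to 6.29, with a median of 5.97, in leukemia. Both the lowest and the highest values of Hmgcs1 were leukemias, 5 and 2. Its difference was 0.05 (95% interval -0.26 to 0.36, adjusted p = 0.868). Idi1, which isomerizes isopentenyl diphosphate, the product of Mvd, read 7.14, 7.09, 6.55 and 7.55 in thymocytes and from 6.04 to 7.28 (median 7.05) in leukemia. Its thymocyte arrays spread the most of any member, and its difference was -0.22 (95% interval -0.73 to 0.30, adjusted p = 0.609). Sqle, the monooxygenase that acts on squalene, read 7.57, 7.47, 7.40 and 7.44 in thymocytes and from 6.89 to 7.70 (median 7.44) in leukemia. Its difference was -0.11 (95% interval -0.37 to 0.16, adjusted p = 0.635). The differences of Idi1 and Sqle turned to 0.037 and 0.045 without leukemias 3, 5 and 7, and neither passed the test then.

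Fdps makes farnesyl diphosphate, the branch point between sterols and prenylated proteins, and was the member that varied most among leukemias. Its brightest probe set (99098_at) read 8.98, 8.97, 8.56 and 9.14 in thymocytes and 9.37, 9.52, 9.38, 9.22, 8.60, 10.23, 8.22 and 9.25 in leukemias 1 to 8. Thus 6 leukemias lay above every thymocyte array, leukemia 7 lay below every one, and leukemia 5 lay among them. The leukemias spanned 2.00 log2 units, a 4.00-fold range, and the thymocytes 0.58. The difference of 0.31 did not pass the test (95% interval -0.29 to 0.91, adjusted p = 0.52). Without leukemias 3, 5 and 7 it was 0.60 (adjusted p = 0.0787). A second probe set of Fdps (160424_f_at), whose name marks possible cross-hybridization, gave 0.25, with thymocytes at 8.63, 8.65, 8.36 and 8.62 and leukemias at 7.98 to 9.38. The remaining 2 (162217_r_at and 162281_at) had means near the control level in both groups, with differences of 0.08 and 0.04.

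**Figure D2:**
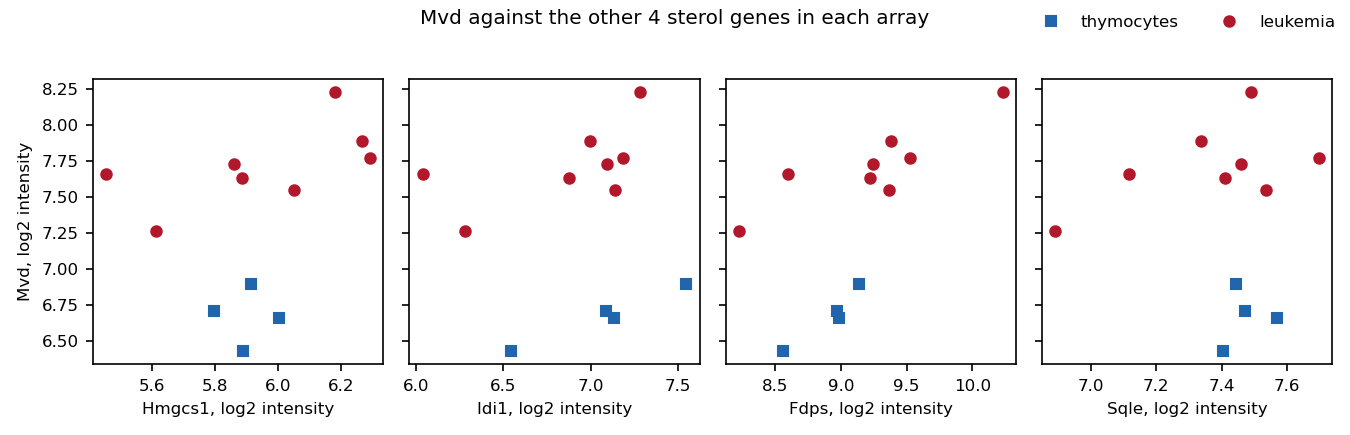
Log2 intensity of Mvd (vertical axis) against that of Hmgcs1, Idi1, Fdps and Sqle (horizontal axes), 1 point an array, with thymocytes as blue squares and leukemias as red circles. At like levels of each partner gene, Mvd was higher in the leukemia arrays. The Mvd values are the same in every panel, so the 4 thymocyte arrays lying below all 8 leukemias is a single result shown again.

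Mvd therefore changed relative to the other sterol members within the arrays. The log2 ratio of Mvd to Idi1 lay between -0.65 and -0.12 in thymocytes and between 0.41 and 1.63 in leukemias, a shift of 1.26. The corresponding shifts were 1.15 for Mvd to Sqle, 0.99 for Mvd to Hmgcs1 and 0.73 for Mvd to Fdps. For all 4 ratios the 8 leukemias lay above the 4 thymocyte arrays without overlap. A ratio within an array shows unequal change of the probe sets and is given here as a description, since it holds the Mvd values already tested.

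Of 18 other sterol synthesis genes named, 13 were measured, 0 were higher, 1 was lower (7.69%, against 17.3% of all genes called) and their median difference was 0.12. The gene that fell was Lbr, the lamin B receptor, which also carries sterol reductase activity and binds chromatin at the nuclear envelope. Lbr read 9.90, 9.83, 9.86 and 9.75 in thymocytes and 9.08 to 9.63 in leukemia, with no overlap and a difference of -0.48 (SE 0.11, adjusted p = 0.00968). Mvk, the kinase that acts on mevalonate upstream of Mvd, had a difference of 0.29 (95% interval 0.05 to 0.53, adjusted p = 0.097). The names of both Mvk probe sets (95633_r_at and 95632_f_at) mark possible cross-hybridization. Fdft1, the squalene synthase that takes the product of Fdps, had 0.02 (95% interval -0.19 to 0.22), and Cyp51, which demethylates lanosterol, -0.00 (95% interval -0.16 to 0.16). Lss, which closes the sterol ring, had 0.24 (adjusted p = 0.0916), and the late enzymes Ebp and Dhcr7 had 0.37 (adjusted p = 0.0807) and 0.52 (adjusted p = 0.328), where the SD of Dhcr7 was 0.71 among leukemias and 0.09 among thymocytes. Ebp passed the test without leukemia 6, at 0.45 (adjusted p = 0.00725), and among the arrays with a title number of 4 digits. With array weights Lss (adjusted p = 0.013), Dhcr7 (0.0308) and Msmo1 (0.0145), a methyl sterol oxidase, passed as higher, as did Mvk and Ebp, and Mvk also passed when its probe sets were averaged. Nsdhl, counted by its brightest probe set (98630_at), had 0.12 (adjusted p = 0.484 in limma), and it was called in 0 of the alternatives. Its other probe sets were higher too. They gave 0.35 (98631_g_at, adjusted p = 0.093 over all probe sets) and 0.28 (93868_at, 0.0257). The last passed the test, with a thymocyte mean near the control level. Pmvk, which supplies the substrate of Mvd, was not analysed here.

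**Figure D3:**
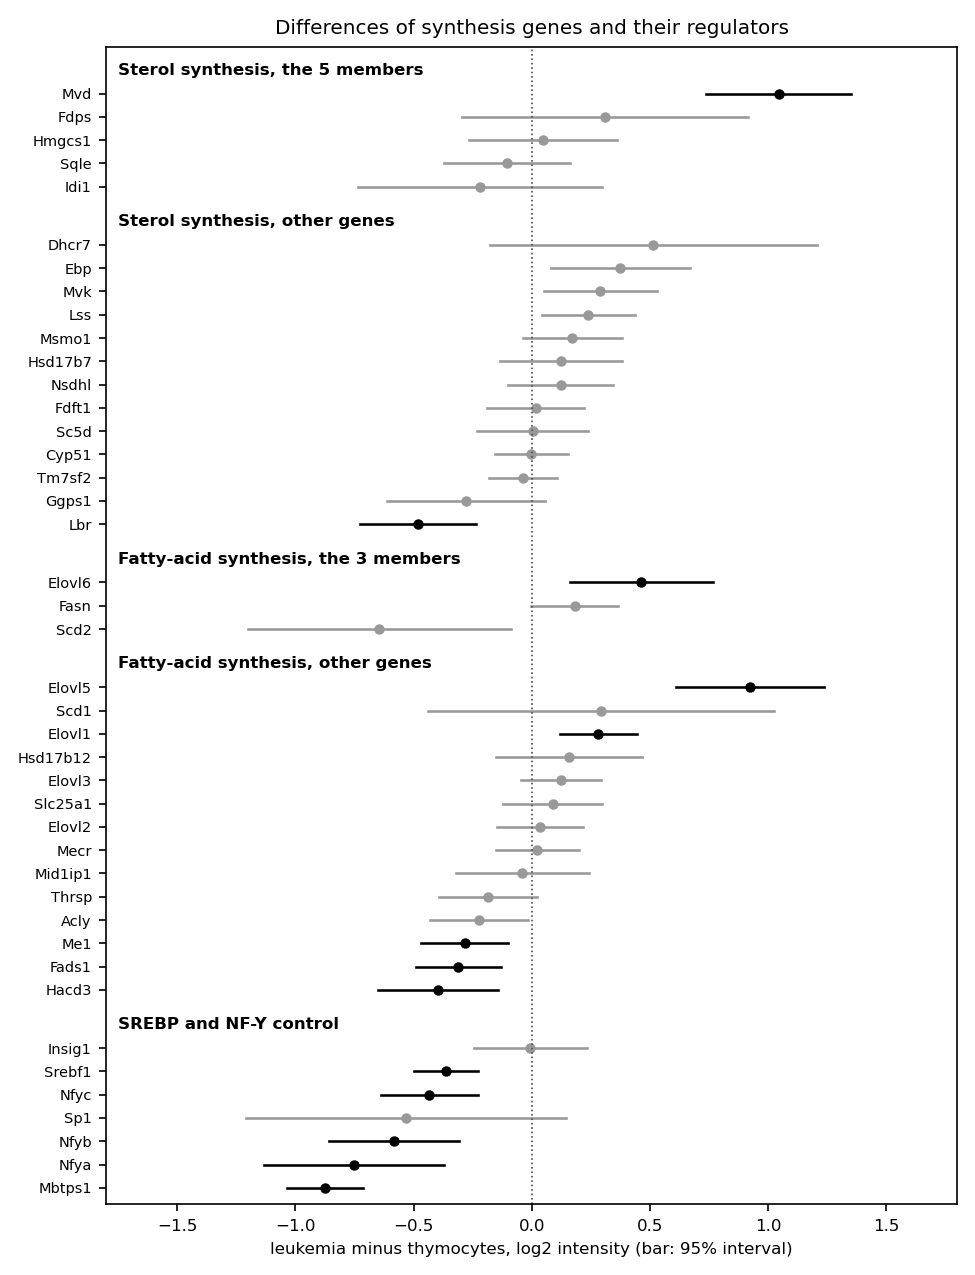
Difference in log2 intensity, leukemia minus thymocytes (horizontal axis), with its 95% interval, for the members, the other measured genes of both pathways and the SREBP and NF-Y genes; black points passed the limma test at an adjusted p under 0.05 and grey points did not. Mvd stands at 1.04 to the right of every other sterol gene, and 5 of the 7 regulators pass at the left.

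Among the leukemias, 4 of the 5 sterol members had the same lowest pair of arrays. Leukemias 5 and 7 were that pair for Hmgcs1, Idi1, Fdps and Sqle, as they were for 5.04% of all genes. The pair was not particular to these genes. It was also the lowest for the fatty-acid member Elovl6, though not for Fasn or Scd2. Among the other sterol synthesis genes it was the lowest for Fdft1, Cyp51 and Nsdhl, and not for the rest. Mvd was lowest in leukemia 7 as well, but its next lowest was leukemia 1, and leukemia 5 (7.66) lay close to its median of 7.70. Leukemia 6 was the highest for Mvd, Idi1 and Fdps, as it was for 14.3% of all genes, and leukemia 2 the highest for Hmgcs1 and Sqle. Leukemia 7 was the lowest for 6 of the 8 members, against 20.3% of all genes. The range among leukemias exceeded that among thymocytes for 7 of 8 members and for 90.2% of all genes, so the wider spread was general, and the leukemia group also holds more arrays.

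**Figure D4:**
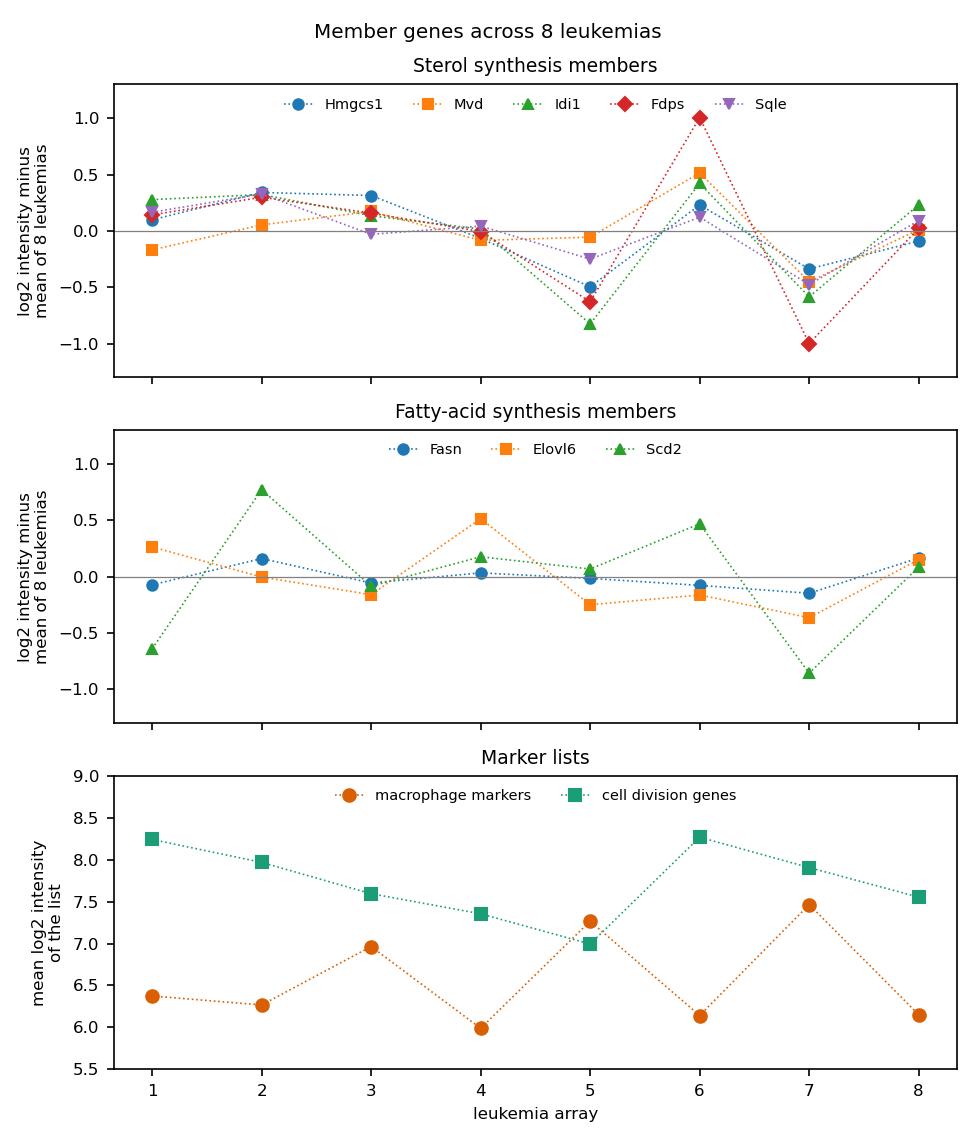
Each member's log2 intensity minus its mean over the 8 leukemias (upper panels, vertical axis) and the mean log2 intensity of the macrophage and cell-division lists (lower panel) by leukemia array (horizontal axis); dotted lines only join the points of a gene and do not stand for an order of arrays. Hmgcs1, Idi1, Fdps and Sqle dip in leukemias 5 and 7, the arrays with the highest macrophage markers, and Elovl6 is lowest there too. Mvd dips only in leukemia 7, and Fdps ranges from 8.22 to 10.23.

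Leukemias 5 and 7, the lowest pair for those 4 sterol members, had the highest means of the macrophage markers (7.27 and 7.47). Leukemia 3, the next highest at 6.96, ranked 2 of 8 from the top for Hmgcs1 and Mvd, 3 for Fdps, 5 for Idi1 and 6 for Sqle, where it lay below every thymocyte array at 7.34. In the cell-division list, leukemia 5 was the lowest of the 8 leukemias at 6.99 while leukemia 7 stood at 7.91, and leukemia 6, high in Mvd, Idi1 and Fdps, was the highest at 8.27. The B-cell list was also highest in leukemias 3, 5 and 7, with means of 7.91, 8.02 and 8.18. It stood at 7.34 to 7.69 in the other leukemias and 7.37 to 7.43 in thymocytes. Leaving out leukemias 3, 5 and 7 thus also left out the arrays with the highest mean of the B-cell list. Not every gene of that list went this way. Blk was highest in leukemias 4 and 8 (8.04 and 7.83), and Ighm was lowest in leukemia 5 (10.42). The part of macrophage RNA, of B-cell RNA and of cell division in this order was not tested. Outside the lists, the genes most like the mean profile of the 5 sterol members over the 8 leukemias were Ywhab, a phosphoserine-binding adaptor protein (Pearson r = 0.945, Spearman rho = 0.929), Gcg (r = 0.942, rho = 0.81), with both means near the control level, and Lrwd1 (r = 0.938, rho = 0.762). These are descriptions over 8 arrays that share their preparation and were chosen as the highest values over all genes outside the lists. None of these 3 genes passed the test between the groups.

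To set Mvd, which rose, beside Hmgcs1 and Idi1, which did not pass the test, the 250 bases upstream of the RefSeq gene start of Mvd, Hmgcs1 and Idi1 are given 5' to 3' on the strand of the gene. They come from RefSeq on GRCm38.p6, which held a window for 5 of the 8 members. Capitals mark CCAAT boxes, searched as CCAAT on both strands (ATTGG on the opposite one), and the core of the sterol regulatory element, searched as TCACNCCAC on both strands.
Mvd, chr8:122443423-122443672, minus strand: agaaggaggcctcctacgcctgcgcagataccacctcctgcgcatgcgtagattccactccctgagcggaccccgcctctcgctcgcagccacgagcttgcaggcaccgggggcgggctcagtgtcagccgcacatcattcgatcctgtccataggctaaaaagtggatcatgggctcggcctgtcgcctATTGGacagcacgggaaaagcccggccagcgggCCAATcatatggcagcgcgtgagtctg
Hmgcs1, chr13:119690101-119690350, plus strand: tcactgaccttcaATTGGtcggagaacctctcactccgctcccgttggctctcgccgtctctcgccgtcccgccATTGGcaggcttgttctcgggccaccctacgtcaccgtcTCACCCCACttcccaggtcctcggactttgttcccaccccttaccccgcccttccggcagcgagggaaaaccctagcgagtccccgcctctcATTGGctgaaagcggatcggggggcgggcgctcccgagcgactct
Idi1, chr13:8885356-8885605, plus strand: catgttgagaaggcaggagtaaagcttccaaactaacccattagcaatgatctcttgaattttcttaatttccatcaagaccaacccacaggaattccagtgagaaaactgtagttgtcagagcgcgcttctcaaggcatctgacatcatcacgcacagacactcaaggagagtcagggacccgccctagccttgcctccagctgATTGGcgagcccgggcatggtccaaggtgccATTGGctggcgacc

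The window of Mvd held CCAAT boxes that begin 60 and 27 bases upstream of the start, that of Idi1 at 45 and 14, and that of Hmgcs1 at 237, 176 and 45. Hmgcs1 was the only member window with the sterol core, TCACCCCAC at 137 bases. The window of Fasn held 3 CCAAT boxes, at 90, 62 and 59 bases, of which the last 2 overlap, and that of Elovl6 held none of the motifs searched. Of all 32851 windows of the same length, 33.8% held a CCAAT box, 10.1% held 2 or more and 1.05% held the sterol core, while 4 of the 5 member windows held 2 or more CCAAT boxes. A GC box (GGGCGG, both strands) stood in 3 of the 5 and in 32.7% of all windows, and the palindrome CACGTG in 0 of the 5 and in 6.02%. A match is a description of letters and not a bound site. The windows of Mvd, which rose, and of Idi1, which did not pass the test, each held 2 CCAAT boxes, at different positions.

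Among the fatty-acid members, Fasn, the synthase that builds palmitate, was the steadiest. Its probe set (98575_at) read 8.43, 8.35, 8.05 and 8.17 in thymocytes and from 8.28 to 8.59, with a median of 8.39, in leukemia. The groups overlapped and the leukemias spanned 0.31 log2 units, a 1.24-fold range and the narrowest of the 8 members. The difference of 0.18 did not pass the test (95% interval -0.00 to 0.36, adjusted p = 0.182). Of the enzymes that supply the substrates of Fasn, Acly, which makes cytosolic acetyl-CoA, had -0.22 (95% interval -0.43 to -0.01, adjusted p = 0.146). Me1, a source of NADPH, had -0.28 (adjusted p = 0.0351) with means near the control level in both groups, and its call was lost without any 1 of 7 arrays (adjusted p up to 0.126, without thymocyte 1), without leukemias 3, 5 and 7, and with arrays centred on their medians. Acaca and Acacb, the carboxylases that make malonyl-CoA, were not analysed here.

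Elovl6, the elongase that takes palmitate to stearate, rose from a tight thymocyte group. Its brighter probe set (103665_at) read 5.99, 5.81, 5.96 and 5.93 in thymocytes and 6.65, 6.38, 6.23, 6.90, 6.14, 6.22, 6.02 and 6.54 in leukemias 1 to 8. Every leukemia lay above every thymocyte array, leukemia 7 (6.02) only just above thymocyte 1 (5.99), and leukemias 4, 1 and 8 were the highest. The means were 6.38 ± 0.29 (SD, n = 8) and 5.92 ± 0.08 (SD, n = 4), with a 95% interval of 0.16 to 0.77 for the difference and an adjusted p of 0.0361 in limma. The call is near the threshold: it was lost without leukemia 1 (adjusted p = 0.0555) or 8 (0.0624), and without any 1 thymocyte array (0.0726 to 0.116). Averaging both probe sets of the gene gave 0.37 (adjusted p = 0.0811). The second probe set (94418_at) read 4.99, 5.07, 5.18 and 5.08 in thymocytes and 5.08 to 5.93 in leukemia, with both means near the control level, and was again highest in leukemias 4 and 8. Without leukemias 3, 5 and 7 the difference of Elovl6 was 0.62 (adjusted p = 0.00817).

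Elovl5 and Elovl1 rose as well. Elovl5, which lengthens polyunsaturated fatty acids, read 9.22, 9.01, 8.89 and 8.94 in thymocytes and from 9.52 to 10.29 in leukemia without overlap. It rose by 0.92 on the log2 scale (SE 0.15, 95% interval 0.61 to 1.24, adjusted p = 0.000698), or 1.90-fold. Elovl1, which acts on saturated very long chains, rose by 0.28 (SE 0.08, adjusted p = 0.0198), a call lost without thymocyte 1 (0.0927) or 4 (0.052), without leukemias 3, 5 and 7, and among the arrays with a title number of 4 digits. Elovl2 and Elovl3 did not pass the test. Of 27 other fatty-acid synthesis genes named, 14 were measured, 2 were higher (both elongases) and 3 lower, and their median difference was 0.03. That is 35.7% of those measured, against 17.3% of all genes, 5.41% higher and 11.9% lower. The share of all genes includes dim ones, and 1126 of the 4125 genes above the median brightness passed. The lower ones were Me1, Fads1, the delta-5 desaturase (-0.31, SE 0.08, adjusted p = 0.0199), and Hacd3, a dehydratase of the elongation cycle (-0.40, SE 0.12, adjusted p = 0.0328). Fads1 lost its call without thymocyte 1 (0.0541) or 4 (0.0727), without leukemias 3, 5 and 7 and under quantile normalization. Hacd3 lost it without leukemia 1, 5, 6 or 8 or thymocyte 1, 2 or 3 (up to 0.142), without leukemias 3, 5 and 7, and when its probe sets were averaged.

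Scd2, a stearoyl-CoA desaturase that makes monounsaturated fatty acids, was the member with the lowest difference. Its brighter probe set (95758_at) read 9.96, 9.83, 9.48 and 9.29 in thymocytes and 8.36, 9.77, 8.91, 9.17, 9.06, 9.46, 8.14 and 9.08 in leukemias 1 to 8. Thus 6 leukemias lay below every thymocyte array, while leukemias 2 and 6 lay among them. The means were 8.99 ± 0.54 (SD, n = 8) and 9.64 ± 0.31 (SD, n = 4). The difference of -0.65 (SE 0.26, 95% interval -1.20 to -0.09) did not pass the test over all genes (adjusted p = 0.112). It passed without leukemia 2 (-0.76, adjusted p = 0.0407) and with array weights (-0.66, adjusted p = 0.0102). The second probe set (162077_f_at), marked for possible cross-hybridization, gave -0.40 with the leukemias at 8.06 to 9.08 and the thymocytes at 9.005, 9.08, 9.02 and 8.49.

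The paralog Scd1 gave no single answer. Its 3 probe sets had differences of -0.26 (94056_at), 0.16 (94057_g_at) and 0.29 (94058_r_at), of which 0 passed the test over all probe sets in limma. Within the arrays, the log2 ratio of Scd2 to Fasn lay between 1.13 and 1.54 in thymocytes and between -0.14 and 1.18 in leukemias, with a mean difference of -0.83 and an overlap. Outside the lists, the genes most like the mean profile of the 3 fatty-acid members over the 8 leukemias were Atp1b1, a subunit of the sodium pump (r = 0.976, rho = 1), Snap47 (r = 0.972, rho = 0.952) and Naa30 (r = 0.967, rho = 0.976), none of which passed the test between the groups. That profile is mostly the profile of Scd2, which spanned 1.63 log2 units among leukemias against 0.31 for Fasn and 0.88 for Elovl6.

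Of 13 genes named that control both pathways, 7 were measured, of which 5 fell, 0 rose and 2 did not pass the test, with a median difference of -0.53. Of all genes, 11.9% fell. Mbtps1, the first of the proteases that release SREBPs, read 9.45, 9.56, 9.54 and 9.44 in thymocytes and 8.40 to 8.80 in leukemia. It fell by 0.88 (SE 0.07, adjusted p = 6.03e-06), or 1.83-fold. Srebf1, which encodes the SREBP that acts mainly on fatty-acid genes, read 9.50, 9.44, 9.35 and 9.28 in thymocytes and 8.92 to 9.13 in leukemia, and fell by 0.36 (SE 0.06, adjusted p = 0.00125). For both genes the groups did not overlap.

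All 3 subunits of NF-Y fell as well, each without overlap. Nfya fell by 0.75 (SE 0.18, adjusted p = 0.00917), Nfyb by 0.58 (SE 0.13, adjusted p = 0.00588) and Nfyc by 0.43 (SE 0.10, adjusted p = 0.00607). Nfya was uneven among leukemias, at 7.03 to 7.10 in leukemias 1, 5, 6 and 7 and 7.61 to 7.88 in leukemias 2, 3, 4 and 8, against 8.06 to 8.22 in thymocytes. Its call was lost among the 4 leukemia and 3 thymocyte arrays whose titles hold a number of 4 digits (-0.54, adjusted p = 0.0876). Both probe sets of Nfyc separated the groups. Sp1 had a difference of -0.53 (95% interval -1.21 to 0.15, adjusted p = 0.302), and Insig1, a sterol-sensing retainer of SREBPs that is itself induced by them, had -0.01 with both means near the control level. Srebf2 and Scap were not analysed here. By the test, 5 control genes were lower, and of the 8 members 2 were higher and 0 lower. A link between these counts was not tested.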

How the data were processed

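The authors deposited 1 linear intensity for each probe set and array. The submitters' processing notes name RMA, while its version and a genome build were not given in the sources used here. Of 12488 probe sets, 66 Affymetrix controls were left out. The deposited intensities were turned into log2 with nothing added. The platform annotation gave 1 gene for 10833 of 12422 probe sets, several for 396 and none for 1193, and 10817 were found in RefSeq (GRCm38.p6, used for names). Each of 8251 genes was represented by its probe set with the highest mean over 12 arrays.

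Groups were compared by lmFit and eBayes of limma 3.58.1 under R 4.3.3 (two-sided, no covariate), with Benjamini-Hochberg adjustment over all genes, or over all probe sets for a single probe set. The fit was tested on simulated data. The control level is the 95th percentile of 19 non-mouse control probe sets, at log2 5.20 to 5.59 by array, and "near" means a group mean below it. With 1 group mean below it, the fold is a minimum ("at least"). Promoters are the upstream part of RefSeq windows. The number of arrays limits the precision.

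Alternatives were other normalizations, brightness filters, variance models, probe-set rules and thresholds, each array left out, a block for title numbers of 4 digits and either kind alone, and, chosen after seeing the data, the 3 leukemias highest in macrophage markers left out.

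The members, and the 9 pathway and 9 marker lists, were chosen with earlier results of these data known. Named genes are all members, up to 6 genes past the test in each pathway list, partners and paralogs of members whether or not they passed, and the 3 genes most like each profile.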

Additional observations from a re-analysis of the deposited data

Results flagged for a closer look

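In 76 groups of arrays looked at for the members and the named pathway genes, 3 held an array far from the others, where chance gives about 1 in 20 groups, or 3.8. Thymocyte 3 read 8.36 with the second Fdps probe set (160424_f_at), below the other thymocyte arrays at 8.62 to 8.65, and was the lowest thymocyte array for the brighter probe set too, at 8.56. Thymocyte 4 read 8.49 with the second Scd2 probe set (162077_f_at), below the others at 9.005 to 9.08, and was the lowest for the brighter one as well, at 9.29. Leukemia 1 read 5.07 for Decr1, an auxiliary enzyme of fatty-acid oxidation, above the other leukemias at 4.50 to 4.65, with both group means near the control level.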

How the results depend on the processing

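No paired analysis was possible because the titles give the groups no shared replicate numbers. Mvd kept its direction in all settings run, and its call in all those with more than 1 array a group. Among the 4 leukemias and 1 thymocyte array without a title number of 4 digits its difference was 0.80 (adjusted p = 0.476) and 4 of all genes passed. There the lone thymocyte array is assumed to vary like the leukemias, so the loss of calls says nothing about stability. The count of members past the test, 2, was 1 among genes above the median brightness (6 members tested), at an adjusted p under 0.01, with each gene's probe sets averaged and with the 4-digit arrays alone, 0 with the other arrays alone, and 1 to 3 with each array left out. The count of other pathway genes, 25 of 95, was 43 with array weights, 0 with the arrays without a 4-digit number, and 18 to 26 with each array left out. Over all genes, 1429 passed, 2636 with array weights, 816 at an adjusted p under 0.01, and 938 to 1618 with each array left out, the lowest without thymocyte 1. Idi1 (0.037) and Sqle (0.045) changed sign without the 3 leukemias with the highest macrophage markers, a setting chosen after seeing the data, under which 2 members, 22 other pathway genes and 1067 of all genes passed. The causes were not tested. Signal over the controls limits the second Elovl6 probe set and 2 of the 4 Fdps probe sets.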

Other observations

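Genes that use, move or break down the products of these pathways were counted by lists. Over 9 lists with the pathway genes above, 95 of 149 named genes were measured, 11 were higher and 14 lower in leukemia, or 26.3% against 17.3% of all genes. Among genes above the median brightness, 19 of 63 of these passed, against 1126 of 4125 of all genes, so the shares lay closer together there. Fatty-acid oxidation held 5 higher and 1 lower of 17, with a median difference of 0.18 against 0.00 over all genes. Etfb, a subunit of the electron carrier that takes electrons from acyl-CoA dehydrogenases, rose by 0.69 on the log2 scale (SE 0.09, adjusted p = 0.000114), with thymocytes at 8.01 to 8.21 and leukemias at 8.56 to 9.06, although its second probe set (162144_at) gave 0.04. The dehydrogenases differed in direction. Acadm, for medium chains, fell by 0.79 (SE 0.13, adjusted p = 0.000806), from 8.09 to 8.46 in thymocytes to 7.14 to 7.98 in leukemia, and Acadl, for long chains, rose by 0.62 (SE 0.13, adjusted p = 0.00411), at least 1.20-fold against a thymocyte mean near the control level. Acads (0.26, adjusted p = 0.0243) lost its call without thymocyte 1, 2 or 4 and when its probe sets were averaged (0.15), and Echs1 (0.37, adjusted p = 0.0402) without any 1 thymocyte array, without leukemia 1, 3, 4, 6 or 8, and with a block for title numbers of 4 digits. Decr1 rose by 0.50 (adjusted p = 0.00264) with both means near the control level.

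Isoprenoid use and sterol transport gave single genes. Fntb, the beta subunit of the farnesyltransferase that uses the product of Fdps, rose by 0.86 (SE 0.15, adjusted p = 0.00123), from 6.25 to 6.69 in thymocytes to 6.96 to 7.83 in leukemia, and was highest in leukemia 6, as were Fdps and Mvd. Its partner subunit Fnta had a difference of -0.18 (95% interval -0.33 to -0.03, adjusted p = 0.103). Rabggtb, of the enzyme that prenylates Rab proteins, fell by 0.82 (SE 0.12, adjusted p = 0.000456). Npc2, which carries cholesterol out of lysosomes, rose by 0.92 (SE 0.14, adjusted p = 0.000495), from 9.79 to 10.09 in thymocytes to 10.42 to 11.22 in leukemia. Stard3 fell by 0.37 (SE 0.08, adjusted p = 0.00392), and not when its probe sets were averaged (adjusted p = 0.369). Abca1, the exporter of cholesterol, was at least 1.91-fold lower in leukemia (log2 difference -1.18, SE 0.20, adjusted p = 0.00107), where its mean lay near the control level. Among genes of acyl activation and glycerolipids, Acsl5 rose by 0.64 (SE 0.15, adjusted p = 0.00873) and Agpat3 by 0.59 (SE 0.10, adjusted p = 0.00144), and Lpin2 fell by 0.32 (SE 0.09, adjusted p = 0.0242), a call lost without thymocyte 1, 2 or 3 and when its probe sets were averaged (-0.14).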
